A study of Cavia porcellus with 34 samples.

Results

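A set of 10 genes that mark microglia was followed in the hypothalamic paraventricular nucleus (PVN) of guinea pigs across 3 generations after prenatal exposure to a synthetic glucocorticoid. The list was set by name and held CX3CR1, CSF1R, P2RY12, TREM2, AIF1, TYROBP, C1QA, C1QB, C1QC and LAPTM5. Of these 10 genes, 8 had a row in each table, which held 12114 genes in F1, 12207 in F2 and 12068 in F3. C1QA and C1QC were not analysed here, so the complement C1q complex is represented by its B chain alone. The PVN was punched from juvenile females of the paternal line on postnatal day 40. Their F0 ancestors were Dunkin-Hartley females injected during pregnancy with repeated courses of saline (Veh, labelled Control) or of betamethasone (sGC, labelled Beta). The F1 fetuses were themselves exposed, whereas F2 and F3 descend from F1 and F2 males mated with untreated females, with no further injection. Each group held 5 animals in F1 and F2 and 6 animals in F3, and animals are named SGM with their label number. Per the study's methods, each unit of a sample size stands for a separate litter, and the labels do not name the litters.

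Microglia are the resident macrophages of the brain, and glucocorticoids are known to restrain their inflammatory genes. CX3CR1 receives fractalkine (CX3CL1) from neurons, CSF1R receives the survival factors CSF1 and IL34, P2RY12 senses nucleotides released by stressed cells, and TREM2 binds lipids and apolipoproteins and signals through the adaptor TYROBP. C1q opens the classical complement cascade, which tags synapses for removal by microglia in the developing brain. AIF1 (Iba1) is a cytoskeletal protein and LAPTM5 a lysosomal membrane protein, and both are found in microglia and other macrophages.

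The values were normalized counts rounded to whole numbers, made by the authors for each generation separately, and their sum per animal was 15.57 to 21.94 M (mega) in F1, 15.65 to 19.44 M in F2 and 18.69 to 18.98 M in F3. They are not raw reads, and levels are not compared between tables or between genes. The punch is bulk tissue, in which fewer microglia and less RNA per microglial cell cannot be told apart. Neuropeptides of the PVN were present in every animal, with AVP between 6289 and 110112 normalized counts, but its markers differed with treatment within the tables. All 6 PVN markers (SIM1, OTP, AVP, OXT, CRH and TRH) had lower means in F1 sGC, where their summed level was 20619 to 180690 against 91185 to 208706 in Veh. In F2 the same 6 had higher means in sGC, with a summed level of 77048 to 170654 against 57323 to 96811 in Veh. The 6 oligodendrocyte markers tested in F1 had higher means in sGC, with a summed level of 36849 to 103146 against 37765 to 47467 in Veh. In F2 all 7 oligodendrocyte markers were lower in sGC, with a summed level of 68680 to 111095 against 130419 to 236881 in Veh, and none of the PVN or oligodendrocyte genes passed the adjusted threshold on the deposited scale, while TRH, lower in F1 sGC, passed with size factors (limma, adjusted p = 0.0398). Endothelial markers summed to 4593 to 8472 in F1 sGC against 3777 to 5888 in Veh, and to 4005 to 4999 in F2 sGC against 4417 to 7362 in Veh. The part of these differences in the results for microglia was not tested.

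No microglia gene passed an adjusted p-value of 0.05 for sGC against Veh in any generation (limma on log2(value + 1), Benjamini-Hochberg over all genes). Among all genes tested, 0.657% passed in F1, 0% in F2 and 0.0506% in F3. Before adjustment, a p-value under 0.05 was found for 2 of 8 microglia genes in F1 (CX3CR1 and CSF1R), 0 of 8 in F2 and 1 of 8 in F3 (TYROBP), beside 13.6%, 11.7% and 13.1% of all genes. The groups overlapped for all 8 genes in all 3 generations, while 2.04% of all genes had groups without overlap in F1, 2.4% in F2 and 1.21% in F3. The log2 fold change was above 0 for 6 of 8 microglia genes in F1, beside 63.8% of all genes, and for 8 of 8 in F3, beside 49%. In F2 it was below 0 for 8 of 8, beside 75.5% of all genes. The values of the 8 genes summed to 3697 to 5098 in F1 Veh and 4165 to 7704 in sGC, to 2709 to 4544 and 2459 to 3689 in F2, and to 3556 to 4505 and 3938 to 4600 in F3.

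**Figure D1:**
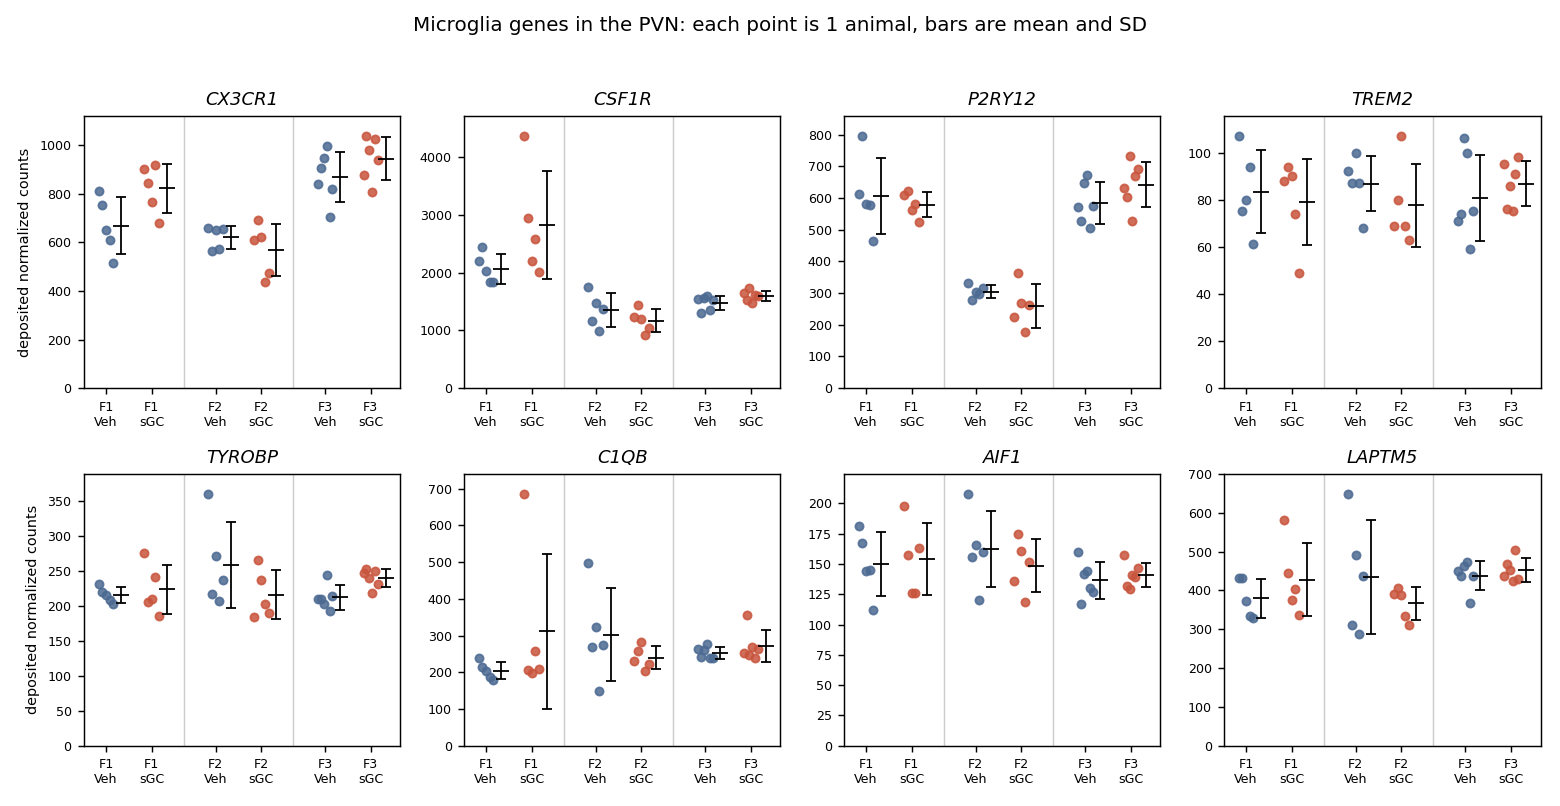
Deposited normalized counts (y axes, linear from 0) of the 8 microglia genes in each animal, by generation and treatment (x axes), with Veh in blue, sGC in red and black bars for the mean and SD. A single F1 sGC animal stands far above the others for CSF1R (4365) and C1QB (686), and the groups overlap in every panel. Levels are not comparable across the grey lines, since each generation was normalized separately.

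CX3CR1, the fractalkine receptor, was higher on average in F1 sGC. It was at 812, 754, 650, 610 and 514 normalized counts in Veh and at 902, 845, 764, 918 and 680 in sGC. All 5 sGC animals were above the Veh mean and 3 were above the highest Veh animal. The mean was 668 ± 118 (SD, n = 5) under Veh against 822 ± 99.6 (SD, n = 5) under sGC, a 1.24-fold difference on the log2(value + 1) scale (95% interval 1.02 to 1.51). This difference did not pass the threshold on the deposited scale (limma, adjusted p = 0.322). With each animal scaled by median-of-ratios size factors, the log2 fold change was 0.25 and passed narrowly (limma, adjusted p = 0.0496), but on that scale 17.3% of all genes passed. With the direction that the authors' normalization had removed entered as a covariate in the same fit, CX3CR1 did not pass (limma, adjusted p = 0.0787).

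CSF1R, the receptor that microglia need to survive, had the smallest p-value of the 8 genes in F1. Its levels were 2205, 2442, 2023, 1838 and 1836 normalized counts in Veh and 4365, 2941, 2206, 2581 and 2018 in sGC. Of the sGC animals, 3 of 5 lay above every Veh animal, and SGM4 was far above the rest. The log2 fold change was 0.40 ± 0.16 (SE), a 1.32-fold difference with a 95% interval from 1.05 to 1.66 (limma, adjusted p = 0.265). Without SGM4 the log2 fold change was 0.23 (limma, adjusted p = 0.656).

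C1QB, the B chain of C1q, had the largest log2 fold change in F1, at 0.42, and this value came mostly from SGM4. Veh animals were at 238, 214, 203, 186 and 179 normalized counts, and sGC animals at 686, 205, 198, 258 and 210. Apart from SGM4 the sGC animals covered nearly the same range as Veh. The adjusted p-value was 0.475 (limma, n = 5 and 5), and without SGM4 the log2 fold change was 0.09 (limma, adjusted p = 0.928). The spread of C1QB within groups was at the 95.2 percentile of all genes tested in F1 and at the 93.1 percentile in F2.

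The other members had small differences in F1. P2RY12 averaged 606 ± 120 (SD, n = 5) normalized counts under Veh against 579 ± 39.3 (SD, n = 5) under sGC, and its log2 fold change was -0.05 with a 95% interval from -0.33 to 0.23. TREM2 had a log2 fold change of -0.09 and its adaptor TYROBP one of 0.04. For AIF1 the value was 0.04 and for LAPTM5 0.16. Adjusted p-values of these 5 genes lay between 0.723 and 0.954 (limma). Without SGM4, the log2 fold changes were -0.06 for AIF1, -0.04 for TYROBP and 0.04 for LAPTM5. With size factors 4 of the 8 microglia genes were above 0, beside 50.7% of all genes, since AIF1 (-0.03) and TYROBP (-0.02) then lay below it.

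The sGC animal SGM4 was the highest of the 10 F1 animals for 5 of the 8 genes, both on the deposited scale and with size factors. The genes did not stand apart equally. C1QB lay 1.64 on the log2 scale above the mean of the other 9 animals after size factor scaling, CSF1R 0.91, LAPTM5 0.54, AIF1 0.38, TYROBP 0.30, CX3CR1 0.26, TREM2 0.09 and P2RY12 -0.01. P2RY12, a marker of microglia in the parenchyma, was at 609 normalized counts in SGM4, within the Veh range of 464 to 796. Genes of other macrophages were read in the same animal, and those named here were chosen after their values were seen. F13A1, a marker of macrophages along vessels and in the meninges, was at 504 normalized counts against 26 to 133 in the other sGC animals and 32 to 52 in Veh. CD14, a co-receptor for bacterial lipopolysaccharide carried by monocytes and macrophages, was at 55 against 11 to 20 and 8 to 21. CD68, a lysosomal protein of macrophages, was at 156 against 43 to 79 and 29 to 56. High values were not confined to these genes. The microglia marker TMEM119 was at 37 against 9 to 21 in the other sGC animals and 4 to 16 in Veh. CTSS, found in microglia and macrophages, was at 123 against 55 to 68 and 58 to 72. TTR, made by choroid plexus, was at 332 in SGM4, but another sGC animal was at 492. The list of perivascular macrophage markers had 2 of its 6 genes tested in F1, with a summed level of 525 to 1597 in sGC and 560 to 727 in Veh, and the part of such cells in the result was not tested.

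Ratios of 2 genes within an animal do not depend on a factor that scales the whole animal, and 4 such ratios were taken after the values were seen. The directions removed by the authors' normalization, and the batch correction in F3, still enter these ratios. The ratio of C1QB to P2RY12 was 1.13 in SGM4 and 0.269 to 0.445 in the other 9 F1 animals. C1QB to CX3CR1 was 0.761 in SGM4 and 0.243 to 0.348 in the others. CSF1R to P2RY12 was 3.07 to 3.96 in F1 Veh and 7.17, 4.72, 3.93, 4.45 and 3.85 in sGC, so that 3 of 5 sGC animals were above the highest Veh animal. CSF1R to CX3CR1 was 2.72 to 3.57 in F1 Veh and 2.81 to 3.48 in the sGC animals other than SGM4, which was at 4.84. In F3 all 4 ratios overlapped between Veh and sGC.

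**Figure D2:**
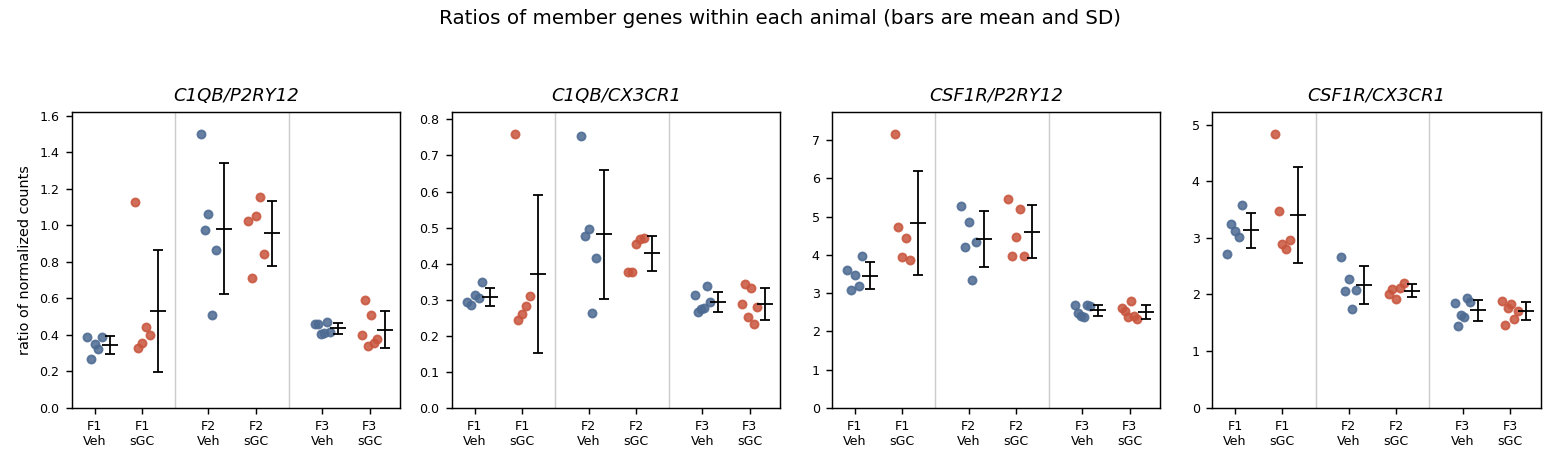
Ratio of the normalized counts of 2 genes within each animal (y axes, linear from 0) by generation and treatment (x axes), with Veh in blue, sGC in red and black bars for the mean and SD. SGM4 is the single high F1 sGC point in each panel, and the F2 Veh animal SGM22 is the high point for C1QB to P2RY12. The height of a ratio also holds the lengths of its 2 genes and the normalization of its table, so only animals of 1 generation can be set side by side.

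In F2 the sGC means of all 8 microglia genes were below the Veh means. With size factors, which set the median of all genes close to 0, the 8 genes remained below 0 beside 50.8% of all genes. The log2 fold changes on the deposited scale ran from -0.27 for P2RY12 to -0.11 for AIF1, with adjusted p-values between 0.533 and 0.774 (limma, 5 Veh and 5 sGC). The same sign was not particular to microglia genes. With size factors all tested neuron (6), oligodendrocyte (7) and endothelial (5) markers were also below 0 in F2. All 6 PVN markers and 6 of 7 astrocyte markers were above 0. Genes of a list were read in the same punches, so their signs are not independent. P2RY12 was at 331, 278, 303, 296 and 316 normalized counts in Veh and at 225, 365, 269, 177 and 264 in sGC. Of the sGC animals, 4 of 5 were below the lowest Veh animal, and SGM26, at 365, was above the highest. The 95% interval of the P2RY12 fold ran from 0.658 to 1.05.

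TYROBP was at 360, 217, 271, 207 and 237 normalized counts in F2 Veh and at 184, 266, 237, 202 and 189 in sGC. Of the sGC animals, 3 of 5 were below the lowest Veh animal on the deposited scale, and TYROBP differed by -0.24 on the log2 scale (limma, adjusted p = 0.564). With size factors SGM24, 1 of these 3, was at 230, above the lowest Veh animal at 211. The log2 fold change was then -0.17 (limma, adjusted p = 0.68). C1QB was at 497, 270, 322, 150 and 273 in Veh and 230, 259, 283, 204 and 223 in sGC, so the whole sGC group lay inside the Veh range. LAPTM5 had the same layout, with 287 to 649 in Veh and 312 to 407 in sGC. CSF1R was at 1350 ± 290 (SD, n = 5) in Veh and 1167 ± 199 (SD, n = 5) in sGC, and CX3CR1 at 620 ± 47.5 (SD, n = 5) and 567 ± 107 (SD, n = 5).

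For AIF1, C1QB, CSF1R, LAPTM5 and TYROBP, the Veh animals SGM22 and SGM28 were the highest and the lowest of the F2 Veh group. SGM22 was the highest of all 10 animals for 5 of the 8 genes, and SGM28 was the lowest for 2 of them on the deposited scale and for 4 with size factors. Without SGM22 the log2 fold change was -0.04 for C1QB, -0.10 for CSF1R and -0.03 for LAPTM5. Without SGM28 it was -0.47 for C1QB (limma, adjusted p = 0.287), -0.30 for CSF1R and -0.32 for LAPTM5. P2RY12 moved most with sGC animals, to -0.40 without SGM26 (limma, adjusted p = 0.376) and to -0.14 without SGM24 (limma, adjusted p = 0.837).

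In F3 all 8 microglia genes were higher in sGC on average, and with size factors all 8 were again above 0, beside 49.9% of all genes. These differences were small, from 1.03-fold for AIF1 and LAPTM5 to 1.13-fold for TYROBP. With size factors all tested oligodendrocyte markers (6), oligodendrocyte precursor markers (4) and ligands of the microglial receptors (4) were also above 0 in F3. All 6 neuron markers were below 0. TYROBP, the signalling adaptor of TREM2 and other myeloid receptors, was at 210, 209, 203, 244, 192 and 214 normalized counts in Veh and at 247, 253, 240, 218, 249 and 231 in sGC. Each of the 6 sGC animals was above the Veh mean and 3 were above the highest Veh animal. The mean was 212 ± 17.4 (SD, n = 6) in Veh and 240 ± 13.1 (SD, n = 6) in sGC, with a log2 fold change of 0.18 ± 0.06 (SE) that did not pass the threshold (limma, adjusted p = 0.227). Within the first sequencing batch, which held 6 Veh and 4 sGC animals, the log2 fold change of TYROBP was also 0.18 (limma, adjusted p = 0.455). The second batch among the tested animals held only 2 sGC animals, so it gives no value of its own.

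CSF1R was at 1482 ± 122 (SD, n = 6) normalized counts in F3 Veh and 1598 ± 91.1 (SD, n = 6) in sGC, with 5 of 6 sGC animals above the Veh mean. The 95% interval of its fold ran from 0.998 to 1.17 (limma, adjusted p = 0.393). CX3CR1 was at 703, 871 and 996 (lowest, median and highest) in Veh and at 806, 959.5 and 1037 in sGC, a difference of 0.12 on the log2 scale (limma, adjusted p = 0.546). P2RY12 was at 507, 574.5 and 673 in Veh and at 527, 651 and 732 in sGC, a difference of 0.14 on the log2 scale (limma, adjusted p = 0.512). In 5 of 6 sGC animals CX3CR1 and P2RY12 were each above their Veh mean.

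The F3 groups of TREM2, AIF1 and LAPTM5 overlapped widely. TREM2 was at 59 to 106 normalized counts in Veh and 75 to 98 in sGC, AIF1 at 117 to 160 and 129 to 157, and LAPTM5 at 368 to 474 and 425 to 505. C1QB was at 262, 241, 261, 276, 238 and 240 in Veh and at 253, 356, 246, 268, 238 and 262 in sGC, where SGM18 alone was above the Veh group. Without SGM18 the log2 fold change of C1QB was 0.00, and with it 0.08 (limma, adjusted p = 0.717). The Veh animal SGM9 was the lowest of all 12 for 5 of the 8 genes, and without it the log2 fold changes ran from -0.00 for LAPTM5 to 0.15 for TYROBP. Within the first batch all 8 were above 0, from 0.03 for LAPTM5 to 0.18 for TYROBP.

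**Figure D3:**
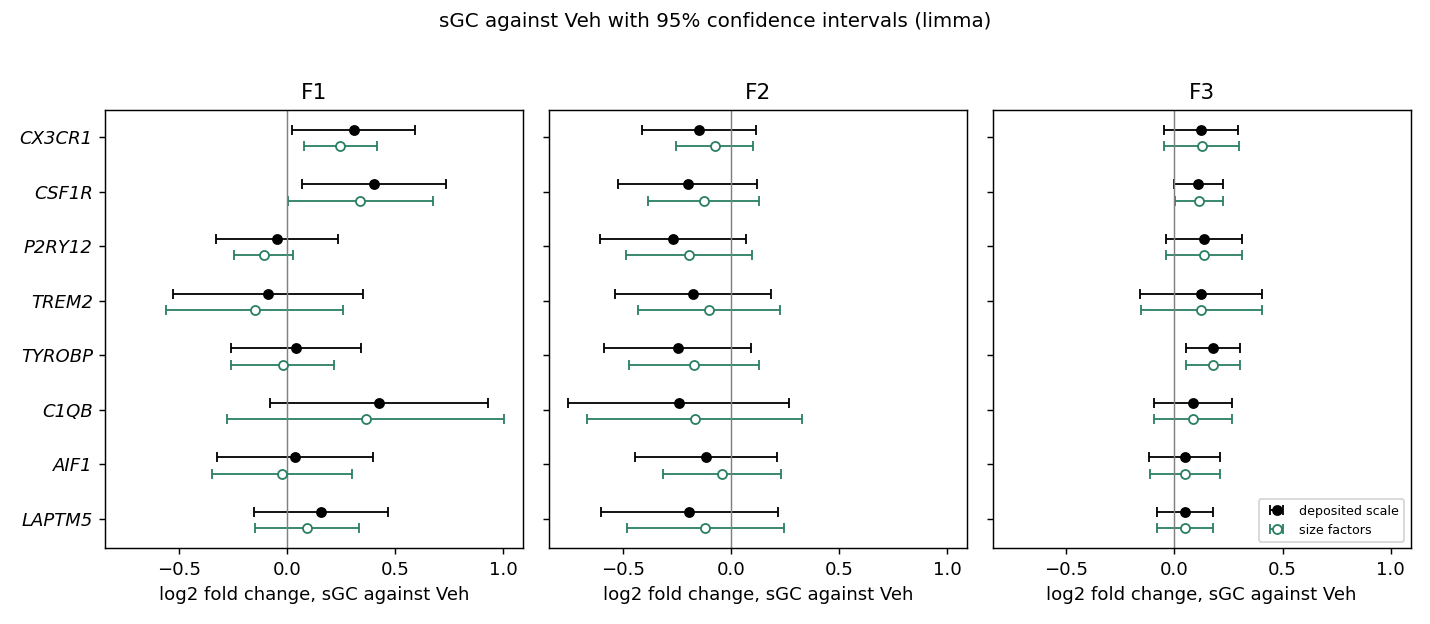
Log2 fold change of sGC against Veh (x axes) for the 8 microglia genes (rows) in F1, F2 and F3, with 95% confidence intervals from limma, on the deposited scale (filled) and with size factors (open). The F2 points all lie below 0 and the F3 points all above it, most intervals include 0, and on the deposited scale each gene has its narrowest interval in F3. TYROBP in F3 has an interval from 0.05 to 0.31 on the deposited scale.

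The precision differed by generation. The median spread of all genes within groups, as a residual SD on the log2 scale, was 0.207 in F1, 0.161 in F2 and 0.083 in F3. For the microglia genes it was 0.165 to 0.547 in F1, 0.214 to 0.456 in F2 and 0.099 to 0.251 in F3. The unadjusted F3 intervals reached folds of at most 1.33, the upper limit for TREM2, while the F1 interval of C1QB, which includes SGM4, reached 1.90. The F3 values were also corrected for batch and had 2 directions removed, against 1 in F1 and F2. Their spread is therefore understated, and these limits may be too narrow.

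The sGC effect was compared between generations as a difference of log2 fold changes in a fit over all 6 groups. None of the 24 differences for microglia genes passed an adjusted p-value of 0.05 (limma, Benjamini-Hochberg over 11429 genes), while 7.64% of all genes passed for F1 minus F2, 3.13% for F1 minus F3 and 0.00875% for F2 minus F3. CSF1R had a difference of 0.60 between F1 and F2, with a 95% interval from 0.18 to 1.02 (limma, adjusted p = 0.0679). For CX3CR1 the difference between F1 and F2 was 0.46 (limma, adjusted p = 0.089). TYROBP differed by -0.42 between F2 and F3 (limma, adjusted p = 0.456) and P2RY12 by -0.40 (limma, adjusted p = 0.522).

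The 8 genes did not vary together to the same degree. Each gene's deviations from its group means were correlated with the mean deviation of the other 7, over 10 animals in F1 and F2 and 12 in F3, after size factor scaling. LAPTM5 followed the others in every generation (Pearson's r of 0.94, 0.72 and 0.74). CSF1R was at 0.86, 0.89 and 0.68, and TYROBP at 0.71, 0.85 and 0.68. C1QB was at 0.83 and 0.80 in F1 and F2 and at 0.13 in F3. P2RY12 was at 0.16, 0.32 and 0.78, and TREM2 at 0.32, 0.14 and 0.73. In F1 these values rest in part on SGM4, since without it r was 0.34 for CSF1R, 0.39 for TYROBP and 0.40 for C1QB. Points share the removed directions and the tissue of 1 punch, and the values are descriptions only.

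Outside the list, the 5 genes whose deviations were most like the mean of the 8 were ITGB2, ANTXR2, B2M, PTGS1 and CEBPB, by the smallest r over the 3 generations among 11429 genes. ITGB2, the beta 2 integrin chain of leukocytes, had a smallest r of 0.81. ANTXR2, an anthrax toxin receptor that binds matrix proteins, was at 0.78, and B2M, the light chain of MHC class I, at 0.77. PTGS1, the cyclooxygenase COX-1, was at 0.77 and CEBPB, a transcription factor of myeloid and other cells, at 0.73. The median r over all other genes was between -0.02 and 0.00 in the 3 generations. Without SGM4 the smallest r was 0.56 for ITGB2, 0.78 for ANTXR2, 0.67 for B2M, 0.09 for PTGS1 and 0.73 for CEBPB, so PTGS1 was like the microglia genes in F1 through that animal. Other genes then took their places: HCLS1 was the most alike at 0.85 and CD180 the third at 0.73, while ITGB2 was at rank 14 and PTGS1 at rank 932.

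The ligands of the microglial receptors were measured in the same punches, with 4 of 6 tested in each generation. CX3CL1, made by neurons, averaged 7846 ± 1011 (SD, n = 5) normalized counts in F1 Veh against 7779 ± 829 (SD, n = 5) under sGC, where the log2 fold change of its receptor was 0.31. CSF1 had log2 fold changes of 0.26, 0.02 and 0.12 in F1, F2 and F3. APOE, a ligand of TREM2, had values of -0.12, -0.03 and 0.04, and CLU 0.04, 0.04 and 0.04. None of the 4 reached an unadjusted p-value of 0.05 in any generation, and the smallest adjusted p-value among them was 0.47 (limma).

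Of 32 other genes of microglia and macrophages, 26 were tested in F1, 25 in F2 and 26 in F3, and none passed an adjusted p-value of 0.05 on the deposited scale (limma). In F1, 20 of 26 had a log2 fold change above 0, beside 63.8% of all genes, with a median of 0.15 beside 0.07 over all genes. At a p-value under 0.05 before adjustment 3 of 26 were higher and none lower, beside 13.6% of all genes in either direction. The F2 values were below 0 for 19 of 25 genes, beside 75.5% of all genes, with a median of -0.22 beside -0.08 over all genes. F3 had 19 of 26 above 0, beside 49% of all genes, and a median of 0.05 beside -0.00. There 8 of 26 were higher and none lower at a p-value under 0.05 before adjustment, beside 13.1% of all genes in either direction. These 8 genes, named after their values were seen, were GPR34, FCER1G, CD84, INPP5D, IRF8, CD53, SALL1 and RUNX1. GPR34, a lysophosphatidylserine receptor of microglia, averaged 218 ± 23.6 (SD, n = 6) normalized counts in F3 Veh against 272 ± 19.3 (SD, n = 6) under sGC, a difference of 0.32 on the log2 scale (limma, adjusted p = 0.0964). FCER1G, an ITAM adaptor like TYROBP, was at 116 to 140 in Veh and 143 to 177 in sGC, without overlap, and differed by 0.27 on the log2 scale (limma, adjusted p = 0.125). INPP5D, a phosphatase that restrains ITAM signalling, was at 264 to 296 and 304 to 335, also without overlap (limma, adjusted p = 0.171). CD84, a SLAM family receptor, was at 62 to 78 and 80 to 89, again without overlap (limma, adjusted p = 0.167). Among all genes tested in F3, 1.21% had groups without overlap, and the genes given here were picked after their values were seen. Markers such as CTSS, ITGB2 and TMEM119 had F3 values of -0.02, -0.02 and -0.10. Perivascular macrophage markers summed to 591 to 745 in F3 Veh and 622 to 779 in sGC and neuron markers to 81418 to 88810 and 79854 to 83268, and the part of either in these values was not tested.

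Of 33 complement genes, 18 were tested in F1, 17 in F2 and 18 in F3, and none passed an adjusted p-value of 0.05 on the deposited scale (limma). In F3, 5 of 18 were higher before adjustment at a p-value under 0.05, beside 13.1% of all genes in either direction, although the median of the list was 0.00, with 9 above 0 and 9 below. These were C1R and C1S, the proteases that C1q carries, C2, which C1s cleaves, properdin (CFP) and the C5a receptor C5AR1, again named after their values were seen. C1R averaged 219 ± 19.6 (SD, n = 6) normalized counts in F3 Veh against 255 ± 35.7 (SD, n = 6) under sGC (limma, adjusted p = 0.295). C1S was at 404 ± 29.1 (SD, n = 6) and 486 ± 97.0 (SD, n = 6) (limma, adjusted p = 0.318). C3, the central component of the cascade, had log2 fold changes of 0.21, -0.21 and -0.09 in F1, F2 and F3. In F1, CSMD1, a membrane inhibitor of complement that neurons express, averaged 507 ± 102 (SD, n = 5) normalized counts under Veh against 752 ± 121 (SD, n = 5) under sGC, a difference of 0.58 on the log2 scale (limma, adjusted p = 0.0785). It passed with size factors, where the difference was 0.51 (limma, adjusted p = 0.00515) and 17.3% of all genes passed. C3 and CSMD1 were also named after their values were seen.

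Of 17 genes known from activated microglia, 12 were tested in F1 and 13 in F2 and F3, and none passed on the deposited scale (limma). With size factors CTSZ, a lysosomal protease named after its values were seen, passed in F1 at -0.20 (limma, adjusted p = 0.0331), beside 17.3% of all genes. Their median log2 fold change was -0.03 in F1, -0.10 in F2 and 0.06 in F3. SPP1, or osteopontin, which neurons also make, averaged 4716 ± 996 (SD, n = 5) normalized counts in F1 Veh against 3314 ± 1171 (SD, n = 5) under sGC, a difference of -0.56 on the log2 scale (limma, adjusted p = 0.171). The difference of SPP1 was -0.60 in F2 (limma, adjusted p = 0.538) and -0.29 in F3 (limma, adjusted p = 0.377). CST7, a cathepsin inhibitor, averaged 557 ± 42.4 (SD, n = 6) in F3 Veh against 657 ± 31.4 (SD, n = 6) under sGC (limma, adjusted p = 0.0797). SPP1 and CST7 were also named after their values were seen.

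**Figure D4:**
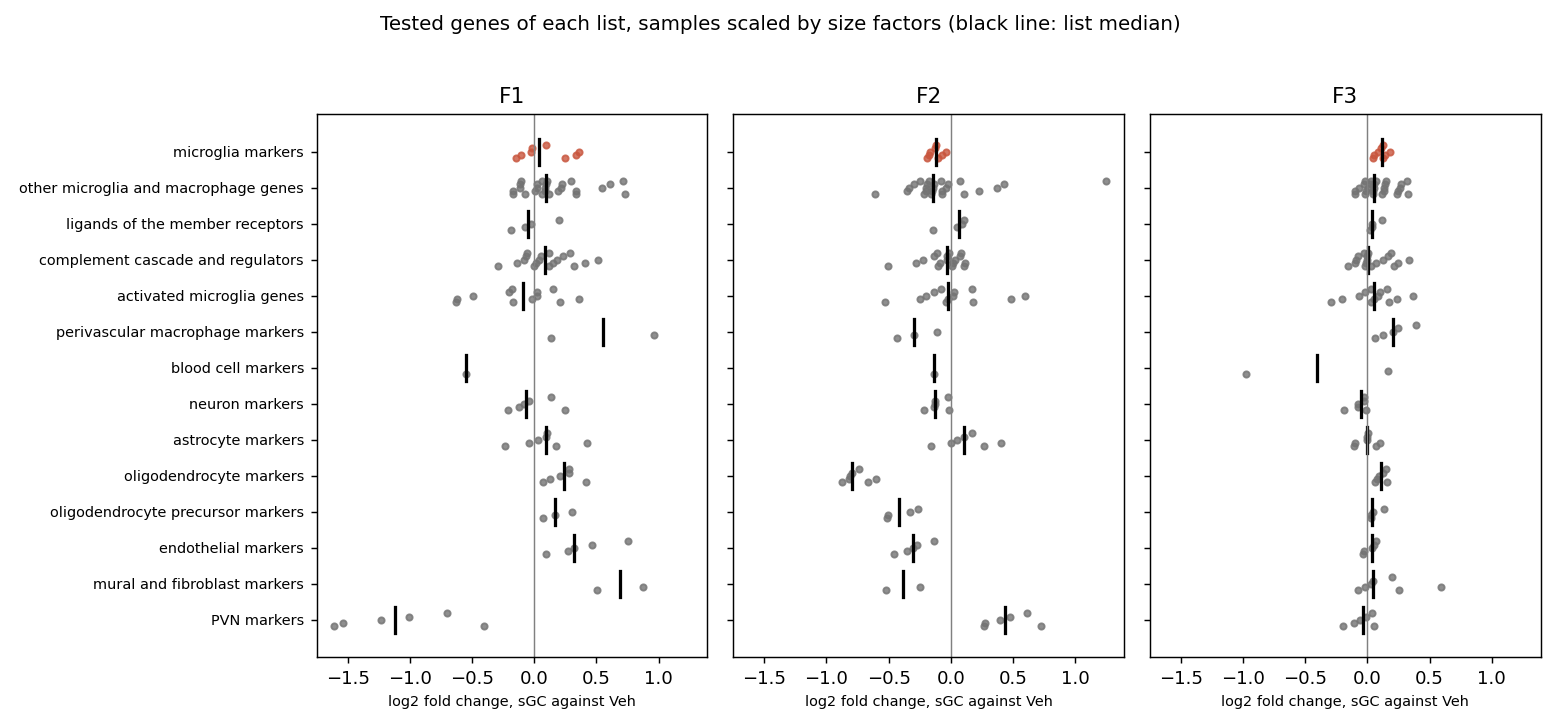
Log2 fold change of sGC against Veh with size factors (x axes) for every tested gene (points) of the 14 lists (rows), with the list median as a black line and the microglia genes in red. The microglia genes lie close to 0 beside the F1 PVN markers, with a median of -1.12, and the F2 oligodendrocyte markers, with a median of -0.79.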

How the data were processed

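RNA of PVN punches was sequenced by the authors, aligned to the cavPor3 assembly and counted on genes. F3 batches were corrected with ComBat, and RUVSeq's residual method normalized the counts. Rounded normalized counts were deposited, and they were handled here as a score, since they are no raw reads. Near-zero singular values of the residuals showed 1 removed direction for F1, 1 for F2 and 2 for F3, so the spread between animals is understated. The tables also hold the authors' fold changes and p-values, which were not used. Genes whose mean reached 10 were fitted per generation on log2(value + 1), two-sided, using lmFit and eBayes (trend) of limma 3.58.1 under R 4.3.3. All p-values of a table were adjusted by Benjamini-Hochberg, and 0.05 was the threshold. Fold changes are on the log2(value + 1) scale, which understates changes of low genes. Intervals are limma's 95% intervals, unadjusted. By rule, the genes to name were the members, genes of other lists under the threshold on the deposited scale, and the 5 most alike genes. No gene of the other lists passed there. Other named genes, among them C3, CSMD1, SPP1 and CST7, lay outside this rule. They are to be read as chosen after their values were seen. Members and lists were chosen with earlier results of these data known. Alternatives covered scaling, pseudocount, filter, removed directions, batch and each animal left out. The 2 re-sequenced Veh libraries were not used. The procedure was tested on simulated data. The number of animals limits the precision, and no interval based on counts is given. Sequences and coordinates were not used here.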

Additional observations from a re-analysis of the deposited data

Results flagged for a closer look

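In 54 groups of animals examined for a single animal far from the rest, 4 were found, where chance gives about 2.7 (1 group in 20). All values are log2(value + 1), except that of the sample total, which is log2 of the sum. C1QB in F1 sGC was at 9.42 in SGM4 and between 7.64 and 8.02 in the other 4 animals. C1QB in F3 sGC was at 8.48 in SGM18 and between 7.90 and 8.07 in the other 5. LAPTM5 in F3 Veh was at 8.53 in SGM9 and between 8.78 and 8.89 in the other 5. The sample total in F1 sGC was at 23.95 in SGM20 and between 24.19 and 24.25 in the other 4 animals.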

How the results depend on the processing

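No microglia gene passed in F2 or F3 under any alternative run, and in F1 1 gene, CX3CR1, passed with size factors or with samples scaled to their total (1 gene under each). The number of genes passing in F1 was 78, and it was 2058 with size factors, 1943 with totals, 1345 with size factors and the removed direction, 1513 with size factors without SGM4, and 15 to 473 with each animal left out. In F2 it was 0, 17 with a minimum mean of 50 and 0 to 114 with each animal left out. In F3 it was 6, 1 with the removed directions on either scale, 2 in the first batch, 3 with batch as a covariate and 1 to 15 with each animal left out. For differences between generations, size factors gave 1635, 2013 and 18 genes for F1 minus F2, F1 minus F3 and F2 minus F3, and the first F3 batch gave 99 and 0 for the last pair of contrasts. Signs turned in F1 for AIF1 (-0.025 with size factors with or without the removed direction, -0.019 with totals, -0.11 with size factors without SGM4), for TYROBP (-0.021, -0.015 and -0.092) and for LAPTM5 (-0.015 with size factors without SGM4). With each animal left out, F1 log2 fold changes were -0.062 to 0.11 for AIF1, -0.037 to 0.11 for TYROBP, -0.14 to 0.057 for P2RY12 and -0.19 to 0.072 for TREM2, and in F3 LAPTM5 was at -0.0010 to 0.072. The difference for TREM2 between F1 and F2 was -0.049 with size factors, and that for AIF1 between F1 and F3 was 0.0021 in the first F3 batch. The causes were not tested. The alternatives without SGM4 on the size factor scale and for likeness were chosen after seeing the data. The planned correlation between the C1q chains was not run, because C1QA and C1QC were not analysed here. No paired analysis was possible, because the labels do not name the litters and SGM numbers do not pair the animals.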
